A study of Mus musculus with 8 samples.

Results

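Transcripts of the transforming growth factor beta (TGF-beta) pathway were measured in lactating mouse mammary glands with Th-POK (WT, the wild type) or without it (KO, the knockout). The genes described are the 3 ligands Tgfb1, Tgfb2 and Tgfb3, the latency protein Ltbp1, the receptors Tgfbr1, Tgfbr2 and Tgfbr3, the signal transducer Smad3, and the feedback inhibitors Smad7 and Skil. They were chosen by name, as the ligands, receptors and feedback genes of the pathway, and make up 10 of the 18749 genes with a probe on the array. All 10 were among the 14137 genes tested, and their 14 probes were well above background on all 8 arrays. The No. 4 glands came from 4 WT and 4 KO female mice of strain C57/Bl6, age-matched per the methods and taken at lactation day 1. The KO animals lack Th-POK, a zinc finger transcription factor encoded by Zbtb7b and best known for directing T cells to the CD4 fate. No restriction of the knockout to mammary cells is stated, so other cells of the gland lack Th-POK too. Each array received the Cy3-labelled RNA of 1 dam, hybridized to an Agilent 4x44K whole mouse genome array.

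TGF-beta ligands are secreted in a latent form, bound to their own propeptide and to a latent TGF-beta binding protein that anchors the complex in the extracellular matrix. Once released, a ligand joins the type II receptor TGFBR2 to the type I receptor TGFBR1, which phosphorylates SMAD2 and SMAD3, and these enter the nucleus with SMAD4. SMAD7, itself a product of a SMAD target gene, blocks the type I receptor, and the Skil product SnoN holds SMAD complexes in a repressed state. In the mouse mammary gland TGF-beta3 rises when milk is retained, and it is known as an early local signal of involution, the regression of the gland after weaning.

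Zbtb7b lay at 9.90 to 10.42 on the log2 scale in the WT glands. In the KO glands it lay at 1.55 to 1.65, well above background on 0 arrays (limma adjusted p = 5.71e-09). With the KO values raised to the lowest signal well above background on each array, it was 81.5-fold lower. The size depended on the background correction, the log2 difference being -4.25 with normexp. A log2 signal is the logarithm of probe brightness after quantile normalization of the 8 arrays, so that a difference of 1 is 2-fold, and levels are not compared between probes. Transcripts of the milk proteins Csn2 (17.69 to 17.85) and Wap (18.33 to 18.48) were bright on all 8 arrays, as the tissue label states. Between 67.1% and 75.6% of spots were well above background per array, and arrays of a genotype correlated at r = 0.974 to 0.992. The WT arrays shared 1 slide and the KO arrays another, which means that genotype and slide cannot be told apart in any value given here. Each value comes from whole glands, in which fewer cells of a type and less RNA per cell cannot be told apart.

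Of the 3 ligand genes, Tgfb3 alone passed the test over all genes. It was 2.68-fold higher in the KO glands (95% interval 1.59 to 4.54). Tgfb1 was at 1.04-fold and Tgfb2 at 0.667-fold of WT, and neither was called.

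On the log2 scale Tgfb3 gave 13.81, 12.45, 14.18 and 13.83 on the WT arrays and 14.94, 14.98, 14.90 and 15.15 on the KO arrays. Every KO array lay above every WT array, with a gap of 0.71 between the highest WT and the lowest KO value. The 4 KO glands were close together (14.99 ± 0.11, SD, n = 4), whereas the WT glands were spread (13.57 ± 0.76, SD, n = 4), with WT 2 the lowest. The difference was 1.42 ± 0.33 on the log2 scale (SE, limma, adjusted p = 0.0277), and Tgfb3 was called with the replicate block too (adjusted p = 0.0308), in which glands of the same number are compared. Within the replicate numbers the KO gland was higher by 1.13, 2.53, 0.71 and 1.33. Without WT 2 the difference was 1.05, and its adjusted p over the 8 fits that each leave out 1 array ran from 0.0134 to 0.0695. The call was lost without KO 1 (1.44, adjusted p = 0.0639), without KO 2 (1.43, adjusted p = 0.0631) and without KO 3 (1.46, adjusted p = 0.0695). It was also lost with the position on the slide as a block (adjusted p = 0.0736) and by the methods' t-test on the same values after Benjamini-Hochberg adjustment (adjusted p = 0.0665).

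Tgfb1, the isoform best known from immune cells, gave 8.20, 8.13, 8.41 and 7.98 on the WT arrays and 8.41, 8.0, 8.26 and 8.29 on the KO arrays. The genotypes overlapped fully, and the difference was 0.06 ± 0.13 (SE, limma, adjusted p = 0.761). Its 95% interval was 0.849-fold to 1.28-fold of WT, which reflects the spread between arrays and does not include a difference between the slides.

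Tgfb2 gave 9.68, 10.48, 10.92 and 10.65 on the WT arrays and 9.82, 10.11, 9.98 and 9.47 on the KO arrays. The WT arrays 2, 3 and 4 lay above all KO arrays, while WT 1 lay among the KO values. The difference was -0.58 ± 0.26 (SE, limma, adjusted p = 0.147). Without WT 1 it was -0.83 with an adjusted p of 0.0227, so that this gland decided whether Tgfb2 was called.

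**Figure D1:**
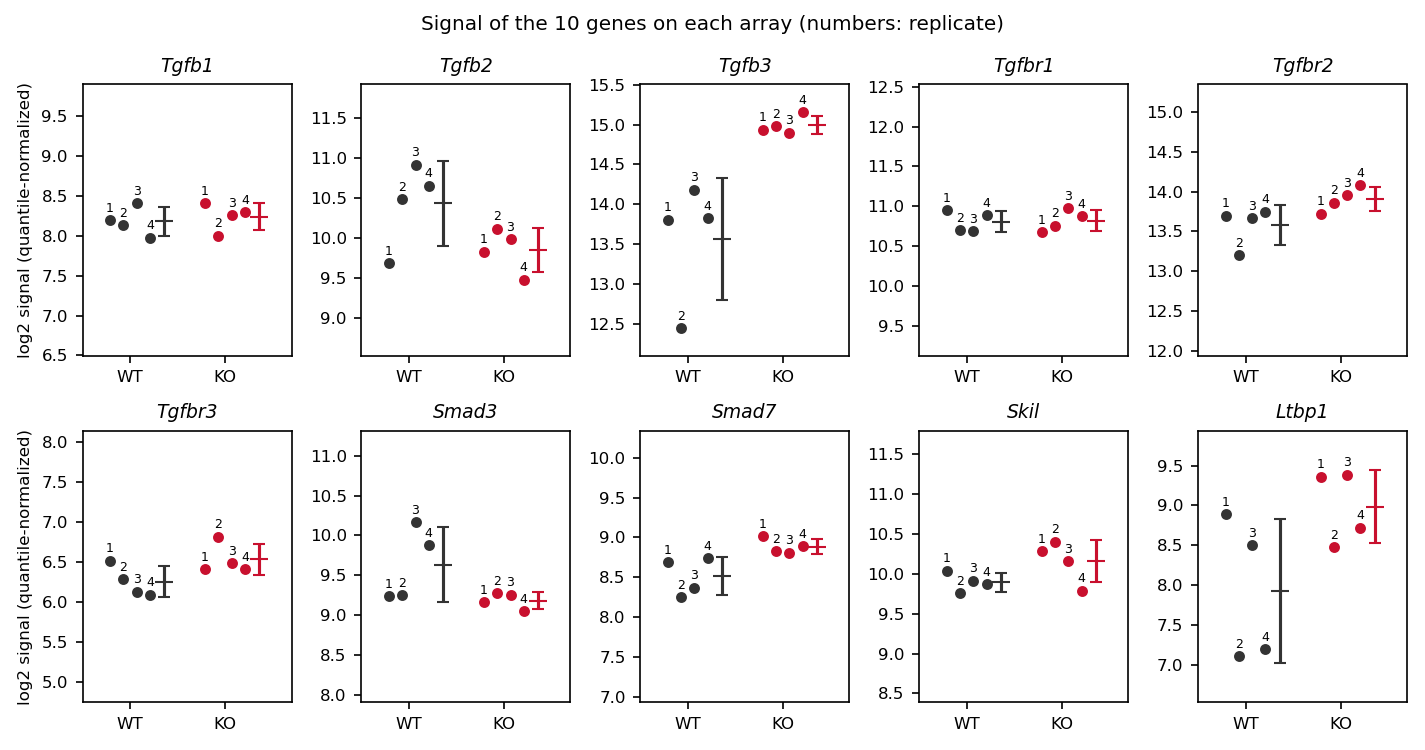
Log2 signal of the 10 genes on each array (y axis, quantile-normalized; every panel spans the same number of log2 units), with WT glands in black and KO glands in red, the replicate number beside each point and the mean with SD of n = 4 at the right of each group. Tgfb3 sits at 14.90 to 15.15 on the KO arrays, above the WT range of 12.45 to 14.18, and Ltbp1 is higher in replicates 1 and 3 than in 2 and 4 in both genotypes.

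Whether the isoforms changed unequally was tested by the ratio of a pair of ligand probes within each array. The log2 ratio of Tgfb3 to Tgfb2 was 4.13, 1.97, 3.27 and 3.17 in the WT glands and 5.11, 4.87, 4.91 and 5.68 in the KO glands. The ratio of Tgfb3 to Tgfb1 was 5.61, 4.32, 5.78 and 5.85 in WT and 6.53, 6.98, 6.64 and 6.86 in KO. In both ratios every KO gland lay above every WT gland. The ratio of Tgfb3 to Tgfb2 was higher by 2.01 and that of Tgfb3 to Tgfb1 by 1.36, each with an exact two-sided permutation p of 0.0286, the smallest that 70 relabelings can give, and 0.0429 after adjustment over the 3 pairs. Leaving out any 1 KO array ended both calls (adjusted exact permutation p = 0.0857). The ratio of Tgfb2 to Tgfb1 was 1.48, 2.35, 2.51 and 2.67 in WT and 1.41, 2.11, 1.72 and 1.18 in KO, with a change of -0.65 (exact permutation p = 0.114). Each ratio moved in its stated direction within all 4 replicate numbers, but an exact test of 4 pairs cannot give a p under 0.125.

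**Figure D2:**
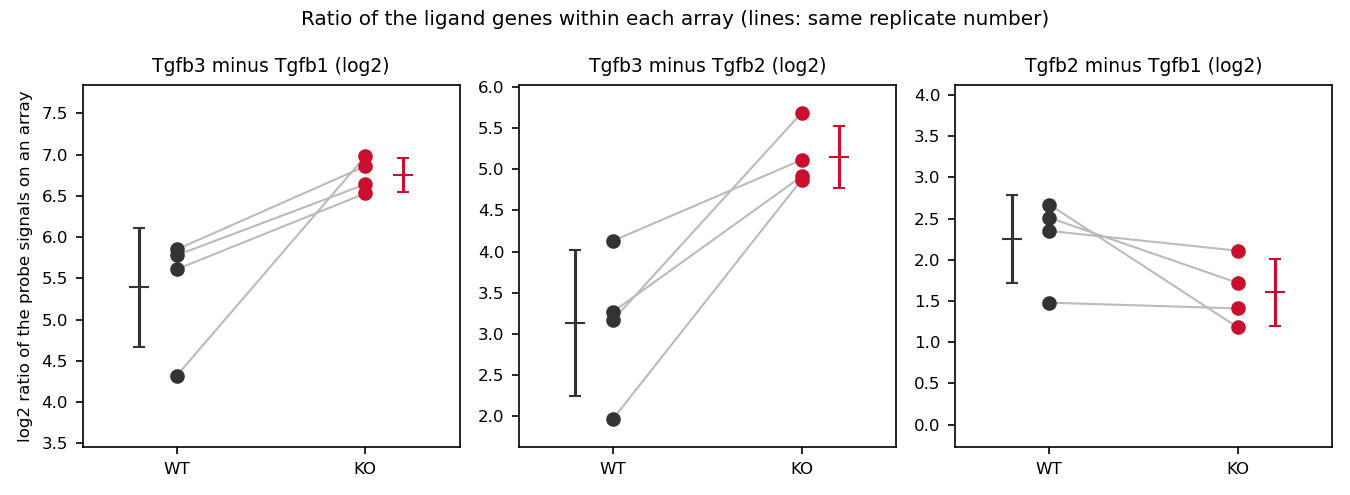
Log2 ratio of the probe signals of 2 ligand genes on the same array (y axis) in WT (black) and KO (red) glands, with lines joining glands of the same replicate number and the mean with SD of n = 4 beside each group. Both ratios with Tgfb3 as the numerator are higher in all KO than in all WT glands (4.87 to 5.68 against 1.97 to 4.13 for Tgfb3 to Tgfb2), while the Tgfb2 to Tgfb1 ratios of the genotypes overlap.

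Sequences from RefSeq (GRCm38.p6) of the 250 bases before the transcription start were at hand for 6 of the 10 genes. For Tgfb3 none was given, and Smad7, Tgfbr3 and Skil are not shown. The promoters of the other 2 ligand genes are printed for reference beside the ligand values, with TATAAA in capitals. They lie at chr7:25686752-25687001 on the plus strand (Tgfb1) and chr1:186705990-186706239 on the minus strand (Tgfb2).
Tgfb1: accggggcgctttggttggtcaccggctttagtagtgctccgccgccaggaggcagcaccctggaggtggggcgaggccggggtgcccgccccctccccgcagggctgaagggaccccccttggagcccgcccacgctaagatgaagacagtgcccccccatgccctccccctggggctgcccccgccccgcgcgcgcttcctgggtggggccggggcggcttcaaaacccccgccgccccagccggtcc
Tgfb2: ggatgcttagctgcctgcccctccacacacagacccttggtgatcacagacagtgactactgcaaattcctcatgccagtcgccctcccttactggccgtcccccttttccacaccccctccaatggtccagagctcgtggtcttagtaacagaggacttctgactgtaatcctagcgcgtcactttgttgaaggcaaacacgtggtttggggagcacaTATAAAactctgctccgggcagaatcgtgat
The Tgfb1 sequence has a GC content of 75.2% and no TATAAA on either strand, and that of Tgfb2 has 53.6% GC and 1 TATAAA, at -31. TATAAA was present in 12.4% of 32851 promoters of the same length, whose median GC content was 52.4%. These letters describe the windows only.

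Ltbp1 encodes the protein that carries latent TGF-beta into the matrix. Its brighter probe gave 8.89, 7.11, 8.50 and 7.20 on the WT arrays and 9.36, 8.48, 9.38 and 8.72 on the KO arrays. Replicates 1 and 3 were brighter than 2 and 4 in both genotypes, and the genotypes overlapped. The difference was 1.06 ± 0.43 (SE, 2.08-fold, limma, adjusted p = 0.116). Within the replicate numbers the KO gland was higher by 0.47, 1.36, 0.88 and 1.52, and in the fit blocked on replicate Ltbp1 was called (SE 0.20, adjusted p = 0.0241). Without WT 1 it was called without the block too (1.38, adjusted p = 0.0423). The second Ltbp1 probe did not move with the first: it gave 6.35, 6.43, 6.51 and 6.19 on the WT arrays and 6.70, 6.07, 6.53 and 6.39 on the KO arrays, a difference of 0.05. With the mean of both probes the difference was 0.56. RefSeq lists 2 starts for Ltbp1, at which the SMAD box CAGAC, searched on both strands, is shown in capitals. Which transcript each probe reads was not determined. The windows are chr17:75005279-75005528 (start 1) and chr17:75178531-75178780 (start 2), both on the plus strand.
Ltbp1 start 1: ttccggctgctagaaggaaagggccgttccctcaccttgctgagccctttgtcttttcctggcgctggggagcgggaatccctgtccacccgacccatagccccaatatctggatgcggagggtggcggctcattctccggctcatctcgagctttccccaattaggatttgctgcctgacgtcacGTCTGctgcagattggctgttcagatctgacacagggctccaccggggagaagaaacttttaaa
Ltbp1 start 2: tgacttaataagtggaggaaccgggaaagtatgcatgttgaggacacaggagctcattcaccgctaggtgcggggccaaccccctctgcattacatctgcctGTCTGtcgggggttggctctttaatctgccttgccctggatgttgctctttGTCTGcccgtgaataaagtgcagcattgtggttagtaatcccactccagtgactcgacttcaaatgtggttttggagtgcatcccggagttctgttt
CAGAC or its complement occurred 1 time in the first window and 2 times in the second, and it was present in 42.2% of all promoters of this length.

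None of the 3 receptor genes passed the test. Tgfbr2, the type II receptor that binds the ligand, gave 13.70, 13.20, 13.67 and 13.75 on the WT arrays and 13.72, 13.86, 13.95 and 14.08 on the KO arrays. KO 1 lay within the WT range and the other KO arrays above it. The difference was 0.32 ± 0.15 (SE, limma, adjusted p = 0.148), with the KO gland higher within 4 of 4 replicate numbers. Tgfbr3, the betaglycan co-receptor that presents TGF-beta2, gave 6.52, 6.29, 6.13 and 6.09 on the WT arrays and 6.41, 6.82, 6.49 and 6.42 on the KO arrays. These ranges overlapped through WT 1, and the difference was 0.28 ± 0.14 (SE, limma, adjusted p = 0.186). Tgfbr1, the type I receptor kinase, lay between 10.69 and 10.96 in WT and between 10.68 and 10.98 in KO glands. Its difference was 0.01 ± 0.11 (SE, limma, adjusted p = 0.942; 95% interval 0.846-fold to 1.2-fold), and its second probe differed by 0.02. The Tgfbr1 and Tgfb1 differences changed sign under some of the alternative settings.

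Smad3, which carries the receptor signal to the nucleus, gave 9.24, 9.25, 10.17 and 9.88 on the WT arrays and 9.16, 9.28, 9.26 and 9.05 on the KO arrays. The WT glands fell into a bright pair, 3 and 4, and a pair at the KO level. The second Smad3 probe showed the same order of the WT glands, with 5.79, 6.09, 7.26 and 6.70 in WT and 6.03, 5.96, 5.97 and 5.78 in KO. The differences were -0.45 ± 0.21 (SE, limma, adjusted p = 0.167) and -0.53 for the second probe, and neither genotype stood clear of the other.

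Of the feedback genes, Smad7 gave 8.69, 8.25, 8.37 and 8.74 on the WT arrays and 9.01, 8.83, 8.81 and 8.90 on the KO arrays. Every KO array lay above every WT array, though by a gap of only 0.06. The difference was 0.37 ± 0.13 (SE, 1.29-fold, limma), and its adjusted p was 0.0866, or 0.0668 with the replicate block, so that Smad7 did not pass the test. With arrays weighted by their quality it did (0.40, adjusted p = 0.0374). Skil gave 10.04, 9.75, 9.91 and 9.87 on the WT arrays and 10.28, 10.40, 10.16 and 9.79 on the KO arrays. KO 4 was within the WT range and the other KO arrays above it, with a difference of 0.26 ± 0.15 (SE, limma, adjusted p = 0.221) and of 0.07 for the second probe.

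**Figure D3:**
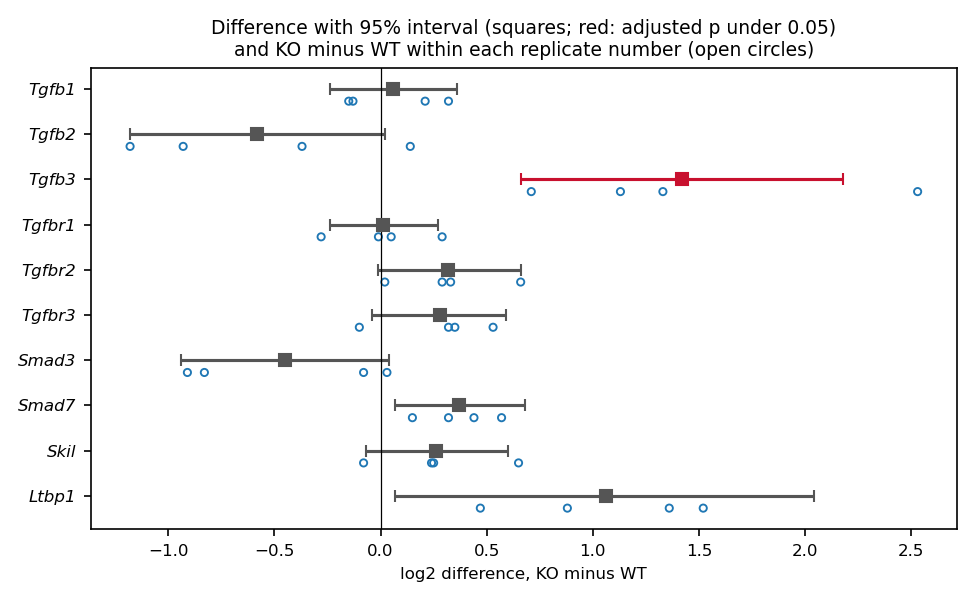
Log2 difference KO minus WT (x axis) of the 10 genes with its 95% interval from limma (squares, n = 4 and 4), red where the adjusted p is under 0.05, and the difference within each replicate number (open circles). Tgfb3 alone is red, at 1.42, and the intervals of Smad7 and Ltbp1 also lie above 0 without passing the adjusted test.

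By count, 8 of the 10 genes had a higher mean and 2 a lower mean in KO than in WT glands, with a median log2 difference of 0.27, against 47.6% higher and a median of -0.02 over all genes tested. Of the 10, 1 gene (Tgfb3) was called higher in the KO glands and 0 were called lower, where 16.5% of all genes tested were called, 7.53% higher and 8.96% lower. At an unadjusted p under 0.05, Smad7 and Ltbp1 were higher as well, and the lower count was still 0, where 16.7% of all genes were higher and 19.6% lower at that threshold. Tgfb3 and Smad7 had KO arrays all above the WT arrays, which held for 11.1% of all genes tested. With the replicate block 2 of the 10 were called, Tgfb3 and Ltbp1, where 19.5% of all genes were. The counts of called genes rest on 1 to 3 genes each, and no count here is given as particular to the 10.

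WT 2 held the lowest WT value of 5 of the 10 genes, namely Tgfb3, Tgfbr2, Smad7, Skil and Ltbp1. Over the 8 arrays Tgfbr2 had the highest r with Tgfb3 of the other 9 genes (0.906, and 0.849 after the genotype means were subtracted). Tgfbr2 was set far apart on WT 2, at 13.20 against 13.67 to 13.75 on the other WT arrays. How much of its r rests on that array was not tested. Smad7 (r = 0.820) and Ltbp1 (r = 0.758) followed Tgfb3 less closely, and with the genotype means subtracted their r was 0.517 and 0.516. Smad3 had r = -0.231 over the 8 arrays and 0.635 after that subtraction. Of all genes tested outside the 10, those with the highest r with Tgfb3 were Zfp113 (0.990), Gm5148 (0.986), Kcnd2 (0.983), Tmub2 (0.981) and Slc5a7 (0.979). Gm5148, Kcnd2 and Slc5a7 entered through the KO arrays, being well above background on 2, 1 and 3 WT arrays, so their r rests in part on dim signals. After the genotype means were subtracted the r of the 5 genes was 0.945 to 0.966. Without WT 2, but with the genotype means left in, their r was 0.952 to 0.970. An r without WT 2 and with the means subtracted was not computed. These values over 8 arrays share the low WT 2 array and the genotype difference, and they are given as a description.

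Genes that set how much ligand is released were next compared. Of 19 latency and activation genes tested, 4 rose and 1 fell (26.3% called, against 16.5% of all genes tested), and the list median was 0.14. Ltbp3, a second latent TGF-beta binding protein, gave 13.16, 12.63, 13.06 and 12.52 in WT and 13.95, 13.74, 13.87 and 13.41 in KO glands. It rose by 0.90 ± 0.19 (SE, limma, adjusted p = 0.0202), with all KO glands above all WT glands. Itgb6, the integrin subunit that frees TGF-beta in epithelia, gave 6.65, 7.02, 6.80 and 7.62 in WT and 7.94, 7.70, 8.21 and 8.37 in KO, and rose by 1.03 ± 0.23 (SE, limma, adjusted p = 0.0253). Mmp14, a membrane protease, rose by 0.67 ± 0.18 (SE, limma, adjusted p = 0.0422), a call that was lost when its probes were averaged (0.52, adjusted p = 0.0837). The matrix proteoglycans that bind TGF-beta moved in opposite directions: Dcn rose by 0.50 (limma adjusted p = 0.0257) and Bgn fell by 0.70 (limma adjusted p = 0.0151). With the replicate block, which called 19.5% of all genes tested, 6 rose and 1 fell. Mmp2 (0.54) and Thbs1 (0.91) were added, with adjusted p = 0.0334 and 0.0231 in limma with the block.

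Of 28 further receptors, SMADs and regulators tested, 6 rose and 0 fell (21.4% called), and the list median was 0.02. Smad4, the partner of all receptor SMADs, gave 12.37, 11.79, 11.90 and 12.09 in WT and 12.56, 12.75, 12.74 and 12.68 in KO, and rose by 0.64 ± 0.14 (SE, limma, adjusted p = 0.0224). Tgif1 and Tgif2 encode corepressors of SMAD complexes, and both rose, by 1.18 ± 0.29 (SE, limma, adjusted p = 0.0320) and 1.11 ± 0.19 (SE, limma, adjusted p = 0.0139). Tgif2 lay at 8.77 to 9.72 in WT and 10.25 to 10.45 in KO glands. Nedd4l, a ubiquitin ligase that limits SMAD signalling, rose by 1.14 ± 0.17 (SE, limma, adjusted p = 0.00969), from 8.03 to 8.79 in WT to 9.45 to 9.73 in KO. Usp11, a deubiquitinase acting on the type I receptor, rose by 0.65 (limma adjusted p = 0.0237). The sixth was Smurf1, another ubiquitin ligase of the pathway (0.38, limma adjusted p = 0.0365), which was not called with the replicate block (adjusted p = 0.0568), where Ep300 took its place (0.43, adjusted p = 0.0392). Smad2, the other receptor SMAD of TGF-beta, lay at 9.68 to 10.01 in WT and 9.72 to 9.96 in KO glands, a difference of -0.04.

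Transcripts that TGF-beta is known to induce were compared next. Of 28 target genes tested, 2 rose and 1 fell, with a list median of 0.12, and 19 had a higher and 9 a lower mean in KO glands. Junb, which encodes an AP-1 subunit and responds to many signals, gave 13.11, 11.62, 12.10 and 12.22 in WT and 14.26, 13.99, 13.59 and 13.33 in KO, and rose by 1.53 ± 0.32 (SE, limma, adjusted p = 0.0216). Timp1, a protease inhibitor, rose by 0.62 (limma adjusted p = 0.0399), but not with the replicate block (adjusted p = 0.0699). Itga5, a fibronectin receptor subunit, fell by 0.71 (limma adjusted p = 0.0307). Ccn2, which encodes connective tissue growth factor, had a difference of 1.12 and an adjusted p of 0.0513 in limma, or 0.0358 with the block. With the block, which called 19.5% of all genes tested, 3 rose and 2 fell. Col1a1 (0.54) and Cdkn1a (-0.88) were called in addition, with adjusted p = 0.0342 and 0.0499 in limma with the block.

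In the activin and BMP branches of the family, 2 of 28 genes tested rose and 1 fell, with a list median of 0.26. Inha, the inhibin subunit that opposes activin, gave 5.59, 5.21, 5.40 and 5.42 in WT and 7.21, 6.72, 7.05 and 6.91 in KO glands, and rose by 1.57 ± 0.13 (SE, 2.97-fold, limma, adjusted p = 0.000897). Both genotypes were tight around their means, but the size of this dim probe's difference depended on the background correction, being 0.78 with normexp (limma adjusted p = 0.00434). Nog, which encodes the BMP antagonist noggin, gave 7.09, 8.42, 7.97 and 7.70 in WT and 6.73, 5.99, 6.08 and 6.52 in KO, and fell by 1.46 on the log2 scale (SE 0.29, limma, adjusted p = 0.0183). Smad1, a receptor SMAD of the BMP branch, rose by 0.55 (limma adjusted p = 0.0290). Inhbb, an activin subunit, differed by 1.46, and its KO values of 10.17 to 12.56 reached from within the WT range of 9.03 to 10.87 to above it (limma adjusted p = 0.0938, or 0.0410 with the block). With the block, which called 19.5% of all genes tested, 5 rose and 2 fell. Besides Inhbb, the genes added upwards were Fst (0.70), which encodes an activin-binding protein, and Bmp1 (0.53). Their adjusted p was 0.0186 and 0.0250 in limma with the block. Tdgf1 was added downwards (adjusted p = 0.0404 in limma with the block). Tdgf1 entered through the WT arrays and was well above background on 1 KO array.

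Early involution genes were compared because Tgfb3 is counted among the first signals of involution. Of 26 tested, 6 rose and 1 fell (26.9% called), with a list median of 0.44. Socs3, the feedback inhibitor of STAT3 signalling, gave 10.82, 9.45, 10.51 and 9.61 in WT and 13.29, 11.73, 11.78 and 11.81 in KO, and rose by 2.05 ± 0.43 (SE, limma, adjusted p = 0.0214). Cebpd, a transcription factor downstream of STAT3, gave 13.70, 13.33, 13.54 and 14.06 in WT and 14.82, 15.51, 14.93 and 14.63 in KO, and rose by 1.32 ± 0.22 (SE, limma, adjusted p = 0.0122). In both genes all KO glands lay above all WT glands. Igfbp5, which sequesters the survival factor IGF-1, rose by 1.67 ± 0.43 (SE, limma, adjusted p = 0.0363), and the survival kinase gene Akt1 fell by 0.73 (limma adjusted p = 0.0206). The others were Junb and Timp1, counted above as target genes, and the oncostatin M receptor gene Osmr (1.26, limma adjusted p = 0.0414). With the block, which called 19.5% of all genes tested, 8 rose and 2 fell. Stat3 (0.73, adjusted p = 0.0268 in limma with the block), Ctsl and Cd14 were added upwards and Osm downwards, and Timp1 was lost. Osm was well above background on 1 KO array and entered through the WT arrays. Clu, a marker of the regressing gland, lay at 16.18 to 16.76 in WT and 16.04 to 17.47 in KO, with a difference of 0.16 (limma adjusted p = 0.717). Over the 5 lists, 127 distinct genes were tested, and 18 rose and 4 fell. That is 17.3% called, against 16.5% of all genes. By direction, 14.2% were called higher, against 7.53% of all genes, and 3.15% lower, against 8.96%. The lists were chosen with earlier results of these data known. For KO glands at lactation day 2, not day 1 as here, the paper had already reported higher Cebpd and Socs3 by RT-qPCR. It had also reported lower Akt1 at that day, more clearly in protein than in mRNA. The shares are therefore given as a description only.

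**Figure D4:**
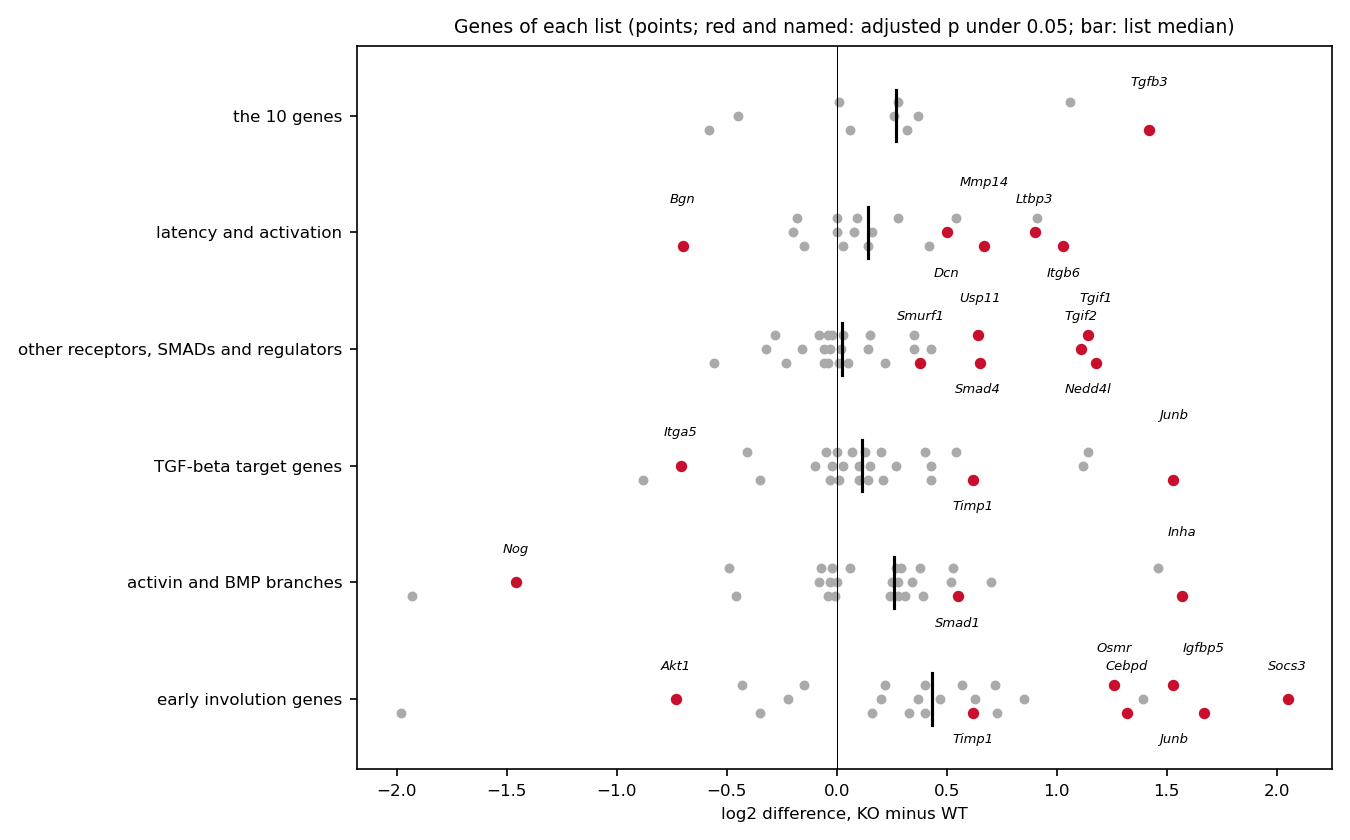
Log2 difference KO minus WT (x axis) of every tested gene of the 10 described and of the 5 pathway lists (y axis), with genes of an adjusted p under 0.05 in limma in red and named, the others in grey, and a bar at each list's median. The medians run from 0.02 to 0.44, and red points lie on both sides of 0 in all rows but those of the 10 genes and of the receptors, SMADs and regulators.

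Markers of the cell types that express these genes were read on the same arrays. The mean log2 signal of 13 fibroblast markers was 11.89 to 12.16 on the WT and 12.09 to 12.57 on the KO arrays (1 called higher, Dcn, median 0.33). For 10 adipocyte markers it was 12.78 to 13.40 in WT and 13.37 to 13.58 in KO (2 called higher, median 0.41). For 13 luminal and alveolar markers it was 14.92 to 15.12 and 15.06 to 15.20 (3 called higher and 1 lower). For 12 basal markers it was 11.87 to 12.37 and 11.76 to 12.14 (1 called lower), and for 12 macrophage markers 9.47 to 9.94 and 9.31 to 9.93 (1 called lower). The WT and KO ranges of each of these 5 means overlapped. Called were 7.69% of the fibroblast, 20% of the adipocyte and 30.8% of the luminal and alveolar markers, against 16.5% of all genes tested. For the basal and for the macrophage markers the share was 8.33%. The 9 tested neutrophil markers averaged 7.87 to 8.60 in WT and 9.62 to 10.57 in KO. Camp and Ngp, granule genes of maturing neutrophils, were not well above background on any WT array and at 5.66 to 7.58 on the KO arrays, so they entered through the KO arrays alone. The 7 neutrophil markers well above background on all arrays averaged 9.36 to 10.39 in WT and 10.47 to 11.47 in KO. Of these, 1 was called higher, Ltf (1.31), a bright probe that reached 16.56 in WT and 17.94 in KO glands. Whether its signal came from neutrophils or from other cells of the gland was not tested. The others were higher in KO without being called: S100a9 (2.19), Retnlg (1.09), S100a8 (0.49), Mpo (0.24), Lcn2 (0.22) and Csf3r (0.08). The defining gene Ly6g did not enter the test. On WT 2, the array with the lowest Tgfb3 value, 4 of the 13 luminal and alveolar markers had their lowest WT value (Krt18, Krt19, Cldn3 and Epcam). So did 8 of 10 adipocyte, 8 of 11 endothelial, 6 of 9 neutrophil, 5 of 13 fibroblast and 5 of 12 basal markers. For macrophage, T cell and B cell markers it was 1 of 12, 0 of 10 and 1 of 6. WT 2 also had the lowest share of spots well above background among the WT arrays (67.3%), and the share over all genes was not computed. Among 10 T cell markers 2 were lower (20% called, median -0.32), and among 6 B cell markers 1 was higher (16.7% called). Among 11 endothelial markers none was called by limma. The part of cell content in the Tgfb3 difference was not tested.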

How the data were processed

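RNA of No. 4 mammary glands from 4 WT and 4 KO dams was measured on 8 one-colour arrays. The authors deposited the scanner output of Agilent Feature Extraction 10.7, in which the intensity of each spot had been background-subtracted and detrended within an array, and a table of log2 values that they had quantile-normalized in GeneSpring; the deposited table (column medians 6.32) served as an alternative only. Probe names and accessions were other deposited columns. Here log2 intensities, control spots left out, were quantile-normalized over the 8 arrays (limma 3.58.1, R 4.3.3). Flagged spots (64 to 100 per array) were left out, no spot was saturated, and spots of a probe were averaged to 41174 probes, of which 27479 matched a gene symbol by accession. Probes well above background on all 4 arrays of 1 genotype entered, and the brightest probe stood for its gene. The test was limma's, with p-values adjusted by Benjamini-Hochberg over all 14137 genes; called means an adjusted p under 0.05. The scripts were tested on simulated data. The number of arrays limits the precision.

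The replicate numbers come from the sample titles. Deviations from the genotype means correlated at r = 0.165 to 0.304 between same-numbered arrays and at -0.0788 on average otherwise. The main limma test and the permutation test left the replicate numbers out. The numbers were treated as pairs only in the replicate block and in the values given within replicate numbers, and WT 1 was closest to KO 3. What a number shares is not given in the sources used here. Alternatives were other normalizations, background corrections, filters, probe choices, blocks, array weights, the methods' t-test and leaving out each array.

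The genes, lists and tests were chosen with earlier results of these data known. Named are all 10 genes with every probe, Zbtb7b, up to 5 called genes of each list by smallest p, and the 5 genes most correlated with Tgfb3. Others, such as Smurf1, Osmr, Smad2, Ccn2, Inhbb, Clu, Camp, Ngp, the markers and genes called only with the block, were named after their values were seen. Lists were written from general knowledge. The scanner output names mouse build mm9 and the RefSeq tables GRCm38.p6, so coordinates are given for RefSeq promoters only. One gene of the target list is not reported here by name.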

Additional observations from a re-analysis of the deposited data

Results flagged for a closer look

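In 72 groups of 4 arrays (36 genes in both genotypes), 5 held an array set far apart from the other 3. Chance gives about 1 in 20 for independent groups, but these groups share the same 8 arrays. Tgfbr2 was at 13.20 on WT 2, against 13.67 to 13.75 on the other WT arrays. The same array was low for a pair of the genes most correlated with Tgfb3, with Tmub2 at 8.46 against 8.74 to 8.78 and Slc5a7 at 3.82 against 6.67 to 6.77. These genes were picked for following Tgfb3, which was lowest on WT 2, so the choice itself favours such flags. Timp1 was at 12.17 on WT 1, against 12.47 to 12.52. Socs3 was at 13.29 on KO 1, against 11.73 to 11.81 on the other KO arrays.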

How the results depend on the processing

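Over 19 alternatives each, 8 of the 10 genes kept their direction. Tgfbr1 turned to -0.02 with 75th percentile scaling, and leaving out 1 array gave -0.04 to 0.06. Tgfb1 turned to -0.02 with array weights, and leaving out 1 array gave -0.01 to 0.14. With the replicate block 2 of the 10 were called higher (Tgfb3 and Ltbp1), 2762 genes in all, and 7 list genes lower. With the position on the slide as a block 0 of the 10 were called, 137 genes in all (78 higher, 59 lower; 56.9% higher against 45.7%), and 1 list gene in each direction. With array weights 2 of the 10 were called higher, 3841 genes (1738 and 2103), and 28 and 7 list genes. By the methods' t-test after Benjamini-Hochberg adjustment 0 of the 10 were higher, with 1389 genes called (593 and 796) and 10 list genes higher. Unadjusted, that t-test gave 2 of the 10 higher, 4765 genes (2202 and 2563), and 31 and 10 list genes. With unmatched probes kept 1651 were higher. Leaving out 1 array gave 0 to 2 of the 10 higher and 0 to 1 lower, 519 to 3076 genes (270 to 1387 higher, 249 to 1689 lower), and 4 to 25 list genes higher and 0 to 6 lower. The ligand ratios then changed by 1.01 to 1.52 (Tgfb3 to Tgfb1), 1.62 to 2.34 (Tgfb3 to Tgfb2) and -0.90 to -0.50 (Tgfb2 to Tgfb1). Without any 1 KO array the adjusted exact p of the first and the second was 0.0857, and by the paired exact test of 1.36 and 2.01 it was 0.125. The other 26 genes named by rule kept their direction in 490 of 490 refits and lost the call in 133. Genes named after their values were seen are not in these counts. With normexp the differences of dim probes shrank, to -4.25 for Zbtb7b, 0.78 for Inha, 0.34 for Gm5148, 0.33 for Kcnd2 and 1.39 for Slc5a7, which was also at 1.45 without WT 2. The causes were not tested. The slide as a block could not be fitted, since each slide held 1 genotype, and names from a gene name column were not run. The background alternative used median signals.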
